A study of Mus musculus with 4 samples.

Results

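The 37 genes described here keep mitochondria in order: they mark damaged organelles for removal, fuse and divide them, degrade and refold proteins inside them, let ions and metabolites through their membranes and make new mitochondrial DNA. They were taken from the deposited mouse count table by gene symbol, 37 of its 56748 genes, and all 37 were found. Bulk RNA sequencing had been run on lungs carrying metastases of 4T1, a mouse triple-negative breast cancer (TNBC) cell line, in 2 saline libraries and 2 cmLumiOpto/PARPi libraries. The mice were female BALB/cJ animals that had received 4T1-FLuc cells, which carry firefly luciferase, through the tail vein at 7 weeks of age. Treated mice were given cmLumiOpto, a luminescent optogenetic gene made to depolarize the mitochondria of cancer cells and carried by an adeno-associated virus inside exosomes coated with an antibody to CD276, together with its light-making substrate ViviRen and olaparib, an inhibitor of PARP, at 50 mg/kg. Since the treated mice received all of these agents, the share of each cannot be told apart. The mice were imaged up to week 3, and their lungs were collected for analysis. The sample labels name PBS and tumour cells harvested from the lungs where the study's methods name saline and lung tissue with metastasis. The terms of the methods are used.

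A mitochondrion that loses the potential across its inner membrane stops importing the kinase PINK1, which then gathers on its surface and helps to mark it for autophagy. The same loss activates the protease OMA1, which cuts the fusion GTPase OPA1, so that the inner membranes can no longer fuse while the division GTPase DRP1 goes on splitting the network. These steps act on proteins. A count of RNA reads shows only how much transcript of each component was present.

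The gene counts of a library summed to between 15263375 and 16755228, so the floor of 3 counts used here lay between 0.173 and 0.204 CPM. CPM stands for a gene's counts divided by the size of its library, here after TMM scaling, which aligns the libraries on the bulk of their genes. The replicates of a group differed by more than counting noise, with a chi-square over its degrees of freedom of 24.1 for the saline pair and 41.1 for the treated pair. By the study's methods the RNA came from lung tissue, and markers of lung cell types differed between groups. Summed over 6 club cell markers, the level was 1152 and 82.4 CPM with saline and 5696 and 3190 CPM after treatment, with 6 of 6 higher at an unadjusted p under 0.05. Most of that sum was Scgb1a1, with 1088 and 74.7 against 5305 and 2794 CPM. Over 8 alveolar type 2 markers the sum was 1757 and 525 against 8138 and 2946 CPM, with 6 higher and 1 lower. Sftpc alone had 1020 and 176 against 6153 and 2092 CPM. Over 7 fibroblast markers the sum was 5091 and 3505 CPM with saline against 1655 and 1846 CPM, with 5 lower and 1 higher. The 8 markers of 4T1 tumour epithelium summed to 3165 and 3505 CPM against 2829 and 3949 CPM, and 0 of 8 passed. No marker of these 4 lists was at 0. The part of these cell types in the results that follow was not tested.

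Of the 37 members, 36 had enough counts to be tested, and none had an adjusted p-value under 0.05 by the quasi-likelihood test of edgeR after adjustment over all genes, as was so for 0 of the 15167 genes tested (0%). At an unadjusted p under 0.05, 2 members were higher after cmLumiOpto/PARPi and 2 were lower, which is 5.56% in each direction against 9.21% and 12% of all genes tested. The higher members were Hspe1, the small subunit of the mitochondrial chaperonin, and Oma1. The lower members were Opa1 and Dnm1l, the gene of DRP1. DESeq2, run as a second tool, called 1 member, Hspe1, and 981 genes in all (7.32%). In 7 of the 36 tested members the treated libraries were both above the saline pair, and in 12 both below it, 19.4% and 33.3% against 27.4% and 27.8% of all genes. With upper-quartile scaling, which moved the median log2 fold change of all genes by 0.11, the split of members was 15 above and 5 below, or 41.7% and 13.9% against 35.1% and 20.9% of all genes. The split of all genes at an unadjusted p under 0.05 then went from 1397 higher and 1824 lower to 2089 and 1186. The share of higher genes was then 63.8%, compared with 43.4%. In these bulk samples, fewer cells of a type and less RNA per cell cannot be told apart.

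With TMM scaling, the members as a group stood close to their saline level. Their log2 fold changes had a median of 0.01, beside 0.02 over all genes, and a median size of 0.14, beside 0.33 over all genes. The median moved with the scaling. With upper-quartile scaling it was 0.12, beside 0.13 over all genes, and with offsets for gene length -0.12, beside -0.05. All genes tested include genes of lower level than any tested member, and the 2 sets were not matched for level. In 30 of the 36 tested members the log2 fold change was under 0.3 in size. In 24 of the 37 the libraries of one group differed by more than the groups did, and treated library 2 lay above treated library 1 in 28 of the 37. The shares over all genes were not computed, so these 2 counts do not set the members apart from other genes. In the heat map of the members by library, Sqstm1 and Bnip3 have a red treated library 2 beside a blue treated library 1. Hspe1, Oma1, Opa1 and Dnm1l have 1 colour in both treated libraries.

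**Figure D1:**
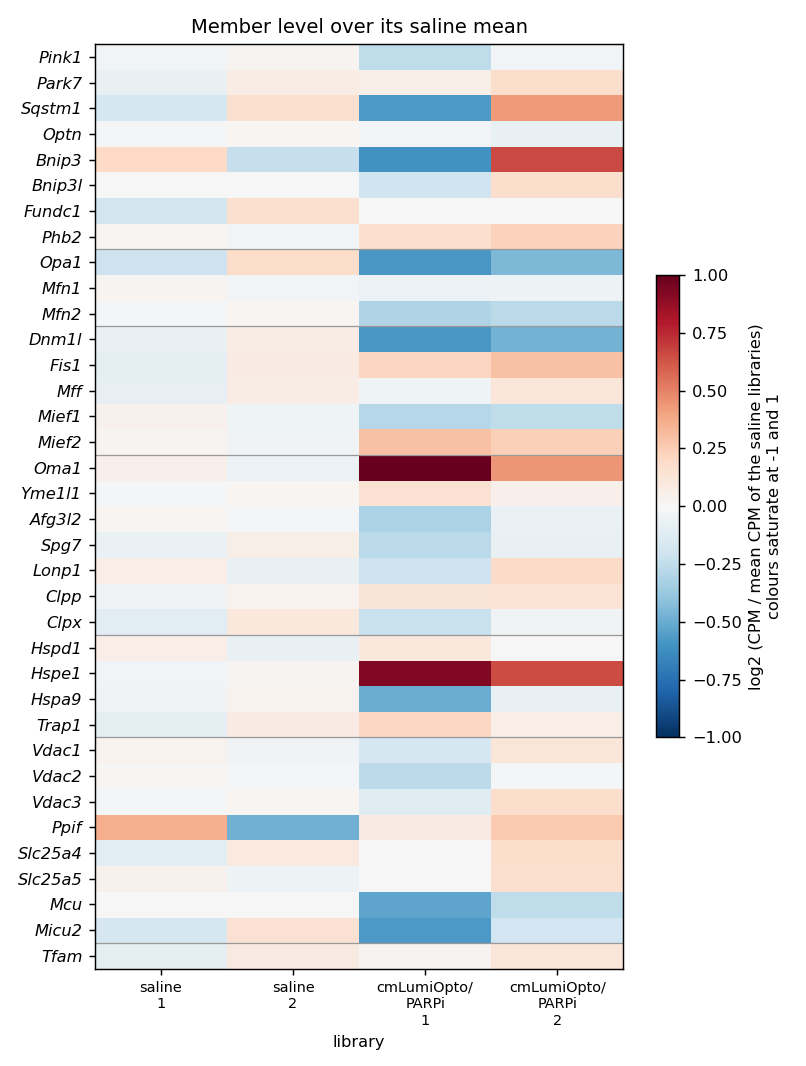
Each row is 1 of the 36 tested members and each column a library. Colour gives the log2 of the member's CPM over its mean in the saline libraries, red above and blue below, saturating at -1 and 1, and grey lines part the roles. Most rows are pale, and the deepest colours in both treated libraries belong to Hspe1 and Oma1 (red) and to Opa1 and Dnm1l (blue).

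Levels of different genes were compared per kilobase of deposited gene length. The adenine nucleotide carrier gene Slc25a5 had the highest mean of the members, 230.3 CPM per kb, followed by Sqstm1 with 210.1, Slc25a4 with 193, Hspd1 with 165 and Vdac1 with 133 CPM per kb. Over the 4 libraries Sqstm1 ran from 141 to 281 CPM per kb and covered the ranges of both neighbours, 217 to 249.8 for Slc25a5 and 173 to 211 for Slc25a4, so its place among them is not set by these data. At the low end, Mief2 had 3.14, Ppif 2.87 and Ppargc1a 0.0595 CPM per kb. The GTPases of fusion and fission were of middle to low level, with 8.39 CPM per kb for Opa1 and 19.2 for Dnm1l.

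**Figure D2:**
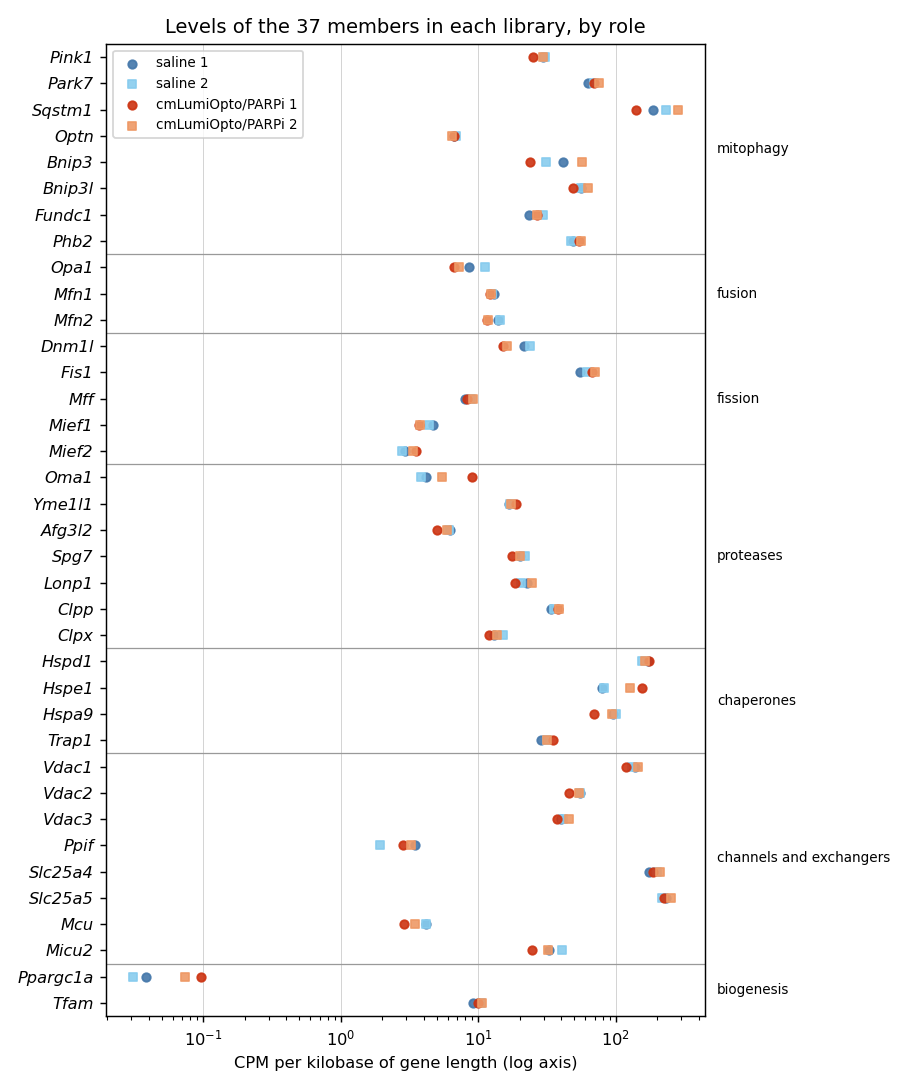
The x axis gives CPM per kilobase of gene length on a log scale and the y axis the 37 members, grouped by role. Circles are replicate 1 and squares replicate 2, blue for saline and red to orange for cmLumiOpto/PARPi. Slc25a5 and Sqstm1 lie at the right end, with means of 230.3 and 210.1, and Ppargc1a alone lies near 0.0595.

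The 8 log2 fold changes of the mitophagy members ran from -0.14 to 0.20, and 0 of 8 had an unadjusted p under 0.05. In what follows, values of a group are given in the order replicate 1, replicate 2. Pink1, the kinase gene of the damage signal, had 78.6 and 81.9 CPM with saline and 67.2 and 78.8 CPM after treatment (log2 fold change -0.14, standard error 0.14, adjusted p = 0.607). Treated library 2 lay between the saline libraries, so the groups overlapped. Park7, whose product DJ-1 guards against oxidative stress, had 156 and 173 CPM against 171 and 186 CPM (log2 fold change 0.12, standard error 0.14).

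Most of the autophagy receptors differed more between libraries of a group than between groups. Sqstm1, the gene of the receptor p62, had 620.5 and 783 CPM with saline and 472 and 944 CPM after treatment. Its treated libraries differed 2.00-fold and enclosed the saline ones (log2 fold change 0.01, standard error 0.34). Bnip3, a hypoxia-induced receptor gene, had 93.7 and 69.8 CPM against 53.8 and 129 CPM. It too was lowest in treated library 1 and highest in treated library 2, a 2.40-fold range (log2 fold change 0.16, standard error 0.40). Its relative Bnip3l had 216 and 214 CPM against 187 and 243 CPM. Both saline libraries lay inside the treated pair, and the log2 fold change was 0.00 (standard error 0.17). A processed copy, Bnip3l-ps, took between 160 and 268 counts, at most 6.63% of those of Bnip3l. Optn, the gene of the receptor optineurin, had 24.96 and 25.8 CPM against 24.93 and 24.1 CPM, below the saline libraries by a log2 fold change of -0.05 (standard error 0.16), and with upper-quartile scaling it was 0.06. Fundc1, a receptor gene of the outer membrane, had 55.1 and 69.7 CPM against 62.5 and 62.3 CPM. Phb2, the gene of an inner membrane prohibitin that binds the autophagy machinery, was above both saline libraries, at 199 and 208 CPM against 180.4 and 175 CPM (log2 fold change 0.20, standard error 0.13, adjusted p = 0.408).

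All 3 fusion members lay lower in both treated libraries with TMM scaling, as did 27.8% of all genes tested. Of these, Mfn1 turned with upper-quartile scaling and was 0.0019 with offsets for gene length. Only 1 of 3, Opa1, had an unadjusted p under 0.05. Among 9 tested fusion and cristae genes of the wider list given below, both treated libraries lay above the saline pair in 7 and below it in 1. The 3 members therefore do not stand for fusion genes at large. Opa1, a dynamin-like GTPase of the inner membrane (ENSMUSG00000038084, chromosome 16 from 29398152 to 29473702 in the positions of the table, which the submitters' processing notes place on mm39), had 67.4 and 88.04 CPM with saline and 52.0 and 56.9 CPM after treatment. Both treated libraries lay below both saline ones, and the saline libraries were 1.31-fold apart. The log2 fold change was -0.51 (standard error 0.17, adjusted p = 0.193). Without saline library 2 it was -0.31 (adjusted p = 0.591), and with offsets for gene length -0.38 (adjusted p = 0.431). The mitofusin genes, whose products join outer membranes, were tighter between libraries. Mfn2 had 72.7 and 74.7 CPM against 59.8 and 61.0 CPM (log2 fold change -0.29, standard error 0.13, adjusted p = 0.262). Mfn1 had 79.3 and 76.4 CPM against 74.8 and 75.3 CPM, a log2 fold change of -0.05 (standard error 0.12) that was 0.05 with upper-quartile scaling.

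Fission members lay on both sides of their saline level. Dnm1l was lower, Fis1 and Mief2 were higher and Mief1 was lower in both treated libraries, and the libraries of Mff overlapped. Dnm1l encodes DRP1, the GTPase that closes around the organelle and divides it (ENSMUSG00000022789, chromosome 16 from 16130094 to 16176823). It had 112 and 124 CPM with saline and 78.8 and 84.8 CPM after treatment. The groups did not overlap, and the libraries within each were at most 1.11-fold apart. The log2 fold change was -0.53 (standard error 0.13, adjusted p = 0.145), and it was -0.52 with length offsets (adjusted p = 0.299). Fis1 had 93.5 and 105 CPM against 115 and 122 CPM (log2 fold change 0.25, standard error 0.13, adjusted p = 0.323), and with length offsets it was -0.07 on the log2 scale. Mief1 had 37.7 and 35.6 CPM against 30.1 and 30.7 CPM (log2 fold change -0.27, standard error 0.15, adjusted p = 0.345), and its paralog Mief2 7.90 and 7.56 CPM against 9.50 and 9.15 CPM (0.27, standard error 0.25, adjusted p = 0.565). Mff, the gene of a further DRP1 receptor, had 78.2 and 87.0 CPM against 80.2 and 89.8 CPM (0.04). The counts of Fis1 over those of Dnm1l gave 0.837 and 0.849 with saline and 1.46 and 1.44 after treatment, 0.78 higher on the log2 scale. With 2 libraries against 2 the exact two-sided permutation p was 0.33, the smallest this design allows. The groups of Fis1 and of Dnm1l lay apart in opposite directions, so their ratio had to lie apart too and is not a separate result.

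Among the 7 proteases, 1 had an unadjusted p under 0.05, Oma1. Oma1, the gene of the stress-activated protease that cuts OPA1 (ENSMUSG00000035069, chromosome 4 from 103171009 to 103229065), had 8.91 and 8.25 CPM with saline and 19.4 and 11.7 CPM after treatment. Both treated libraries lay above the saline ones, but they were 1.66-fold apart. The log2 fold change was 0.86 (standard error 0.31, adjusted p = 0.205). Without treated library 1 it was 0.44 (adjusted p = 0.621), and with length offsets 0.57 (adjusted p = 0.406). Yme1l1, the gene of the other protease that cuts OPA1, had 133 and 136 CPM against 149.8 and 139 CPM (log2 fold change 0.10, standard error 0.13, adjusted p = 0.673). Counts of Oma1 over those of Opa1 were 0.132 and 0.0937 with saline and 0.373 and 0.205 after treatment, a difference of 1.31 on the log2 scale (exact two-sided permutation p = 0.33, the smallest possible). Since the groups of each gene lay apart in opposite directions, the ratio had to lie apart too and is not a separate result. With length offsets the log2 fold changes of Oma1 and Opa1 were smaller in size, 0.57 and -0.38.

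The stretches before the start sites of these 2 genes are shown since their transcripts stood on opposite sides of the saline level. They come from RefSeq on GRCm38.p6 and are read 5′ to 3′ along each gene, Opa1 at chr16:29579084-29579333 and Oma1 at chr4:103313596-103313845, both on the plus strand. Capitals mark the palindromic core bound by the respiratory factor NRF1, GCGCA followed by its reverse complement.
Opa1: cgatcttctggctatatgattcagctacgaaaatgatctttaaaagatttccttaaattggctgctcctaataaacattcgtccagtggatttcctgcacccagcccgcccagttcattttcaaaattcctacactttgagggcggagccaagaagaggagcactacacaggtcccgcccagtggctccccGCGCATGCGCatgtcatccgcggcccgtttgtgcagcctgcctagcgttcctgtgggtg
Oma1: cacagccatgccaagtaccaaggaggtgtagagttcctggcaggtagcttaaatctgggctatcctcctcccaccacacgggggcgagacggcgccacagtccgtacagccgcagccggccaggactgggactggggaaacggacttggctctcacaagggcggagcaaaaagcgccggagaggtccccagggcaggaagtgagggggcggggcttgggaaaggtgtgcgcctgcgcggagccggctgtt
This core stood in the window of Opa1 and of no other member. It stood in 317 of 32817 windows of all genes (0.966%), each from 250 bases before to 50 after a start site, and 32 of the 37 members had a window. No window was found for Afg3l2, Bnip3l, Hspa9, Vdac2 and Vdac3.

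The other proteases stayed within a log2 fold change of 0.2. Afg3l2 and Spg7, the paired subunits of the matrix-facing AAA protease, had 61.9 and 60.5 CPM against 49.2 and 58.3 CPM (-0.19, standard error 0.15) and 91.2 and 99.4 CPM against 78.9 and 90.4 CPM (-0.17, standard error 0.14). Both lay below the saline libraries, and treated library 1 was the lower one in each. Clpp, the peptidase of the matrix ClpXP complex, had 41.6 and 43.6 CPM against 46.6 and 46.9 CPM (0.13, and -0.22 with length offsets), while its unfoldase Clpx had 45.2 and 52.7 CPM against 41.9 and 47.8 CPM (-0.13). Lonp1, the gene of the main matrix protease, had 98.3 and 88.9 CPM against 81.2 and 107 CPM, with the saline libraries inside the treated ones (log2 fold change 0.0049, standard error 0.17).

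The mitochondrial chaperonin has 2 kinds of subunit, and their transcripts gave different counts. Hspe1, the lid subunit HSP10, lay higher in both treated libraries, while the groups of Hspd1, the barrel subunit HSP60, overlapped. Their genes lie head to head and are driven from the space between them. That space is shown whole, since both transcripts share it. On GRCm38.p6 (RefSeq) it spans 215 bases, chr1:55087933-55088147, printed on the plus strand, with Hspd1 starting leftward at its left end and Hspe1 rightward at its right end. Capitals mark 2 overlapping matches, 1 on each strand, to the repeat bound by heat shock factor, TTC, GAA and TTC in this order with 2 bases of any kind between them.
Hspd1-Hspe1 shared promoter: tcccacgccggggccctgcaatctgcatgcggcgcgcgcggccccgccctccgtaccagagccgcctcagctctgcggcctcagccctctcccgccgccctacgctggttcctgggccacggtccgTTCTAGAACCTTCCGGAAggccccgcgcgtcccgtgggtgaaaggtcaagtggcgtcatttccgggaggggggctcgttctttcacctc
The motif, searched on both strands, was found in the window of Hspe1, in 1 of 2 windows of Hspd1 and in no other member's window. It stood in 198 of the 32817 windows (0.603%).

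Hspe1 (ENSMUSG00000073676, chromosome 1 from 55127291 to 55130466) had 117 and 122 CPM with saline and 227 and 188 CPM after treatment. Both treated libraries lay well above both saline ones. The log2 fold change was 0.80, 1.74-fold (standard error 0.15, adjusted p = 0.138), and it ranked 212 by p-value among the 15167 genes tested. With length offsets it was 0.45 (adjusted p = 0.33), the gene being 1474 bases long. DESeq2 gave the same size (0.80) with an adjusted p of 0.00154. Hspd1 (ENSMUSG00000025980, chromosome 1 from 55116994 to 55127402) had 449.6 and 408 CPM against 462 and 428 CPM, with the groups overlapping (log2 fold change 0.05, standard error 0.15, adjusted p = 0.862). The counts of Hspe1 over those of Hspd1 were 0.26 and 0.298 with saline and 0.492 and 0.438 after treatment, 0.74 higher on the log2 scale. The exact two-sided permutation p was 0.33, the smallest possible. With Hspd1 near its saline level, the ratio mostly restates the difference of Hspe1 and is not a separate result. With length offsets the log2 fold change of Hspd1 was -0.17, beside 0.45 for Hspe1.

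The reads of this pair cannot all be placed with certainty. The gene models of the table, unlike those of RefSeq, overlap by 112 bases on opposite strands, and whether strand was used in counting is not given in the sources used here. The pseudogene Hspd1-ps3 took 178 and 420 counts with saline and 138 and 102 after treatment, at most 7.01% of those of Hspd1. Added to Hspd1 it gave 461 and 437 CPM against 469.8 and 434 CPM. Reads shared with such copies could have been counted for either gene.

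**Figure D3:**
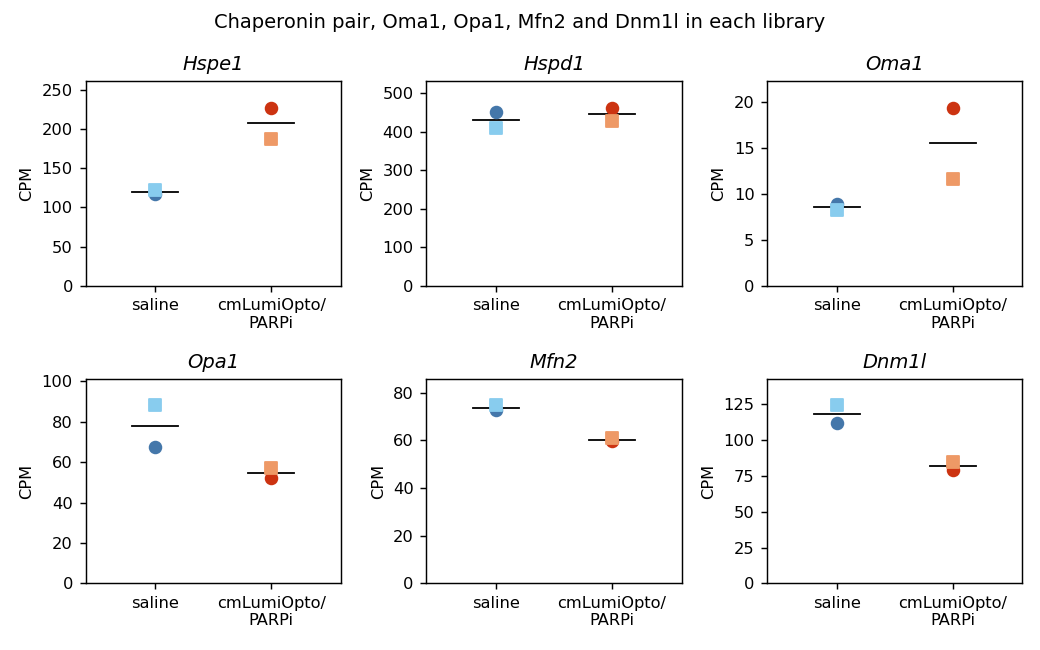
Each panel gives the CPM of 1 gene from 0 upward in the 2 saline libraries (blue) and the 2 cmLumiOpto/PARPi libraries (red to orange), with circles for replicate 1, squares for replicate 2 and a line at each group's mean. Hspe1 lies apart between groups with Hspd1 overlapping, Oma1 is higher with treated library 1 at 19.4 CPM, and Opa1, Mfn2 and Dnm1l are lower.

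The other chaperones did not pass the test. Hspa9, the matrix HSP70 that pulls proteins through the import channel, had 414 and 433 CPM with saline against 301 and 402 CPM (log2 fold change -0.27, standard error 0.18, adjusted p = 0.432). Both treated libraries lay below, mostly through library 1. Trap1, the HSP90 of mitochondria, had 72.9 and 81.8 CPM against 89.3 and 81.2 CPM (0.14, and -0.10 with length offsets).

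Channel and exchanger members ran from a log2 fold change of -0.39 to 0.17, and 0 of 8 had an unadjusted p under 0.05. The porins VDAC1, VDAC2 and VDAC3, through which metabolites cross the outer membrane, kept their order in each library per kilobase. Vdac1 had 361 and 344 CPM against 311 and 382 CPM, a log2 fold change of -0.02 that was 0.08 with upper-quartile scaling. Vdac2 had 264 and 259.6 CPM against 218 and 259 CPM (log2 fold change -0.13, standard error 0.15), the treated libraries being below the saline ones, library 2 only just. Vdac3 had 216 and 222 CPM against 201 and 248 CPM (0.04), and its pseudogene Vdac3-ps1 took 480 to 683 counts, at most 19.5% of those of Vdac3. Summed over the 3 porins, the level was 840.03 and 826 CPM with saline and 731 and 889 CPM after treatment, a ratio of group means of 0.972. The adenine nucleotide carriers, which trade ADP for ATP across the inner membrane, were as close. Slc25a4 had 408 and 470.3 CPM against 441 and 496 CPM (0.09, standard error 0.16), and Slc25a5 380.1 and 356 CPM against 369 and 411 CPM (0.08, standard error 0.15). With length offsets these became -0.16 and -0.24.

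The calcium uptake members had the lowest log2 fold changes of this role. Mcu, the pore of the uniporter, had 28.8 CPM in both saline libraries and 19.98 and 24.2 CPM after treatment (log2 fold change -0.39, standard error 0.18, adjusted p = 0.281). Micu2, a regulatory subunit that gates it, had 100.03 and 125 CPM against 75.4 and 98.6 CPM (log2 fold change -0.37, standard error 0.19, adjusted p = 0.316). In both genes the treated libraries lay below the saline ones. For Micu2 the gap was small, from 98.6 to 100.03 CPM, and without saline library 2 the log2 fold change was -0.20 (adjusted p = 0.766). Ppif, the gene of cyclophilin D, a regulator of the permeability transition pore, had 17.5 and 9.74 CPM against 14.4 and 16.4 CPM. The saline libraries were 1.796-fold apart and enclosed the treated ones (0.17, standard error 0.32).

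Of the 2 biogenesis members, Tfam, the packaging and transcription factor of mitochondrial DNA, had 40.7 and 46.2 CPM against 44.2 and 47.4 CPM (log2 fold change 0.08, standard error 0.15, adjusted p = 0.798). Ppargc1a, the coactivator PGC-1alpha, was too low to be tested. It had 4 and 3 counts with saline and 11 and 8 after treatment, against a floor of 3 counts. The depth-adjusted ratio of the 19 treated counts to the 7 saline counts was 2.44, with an exact 95% interval of 0.984 to 6.88 that covers counting error only.

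**Figure D4:**
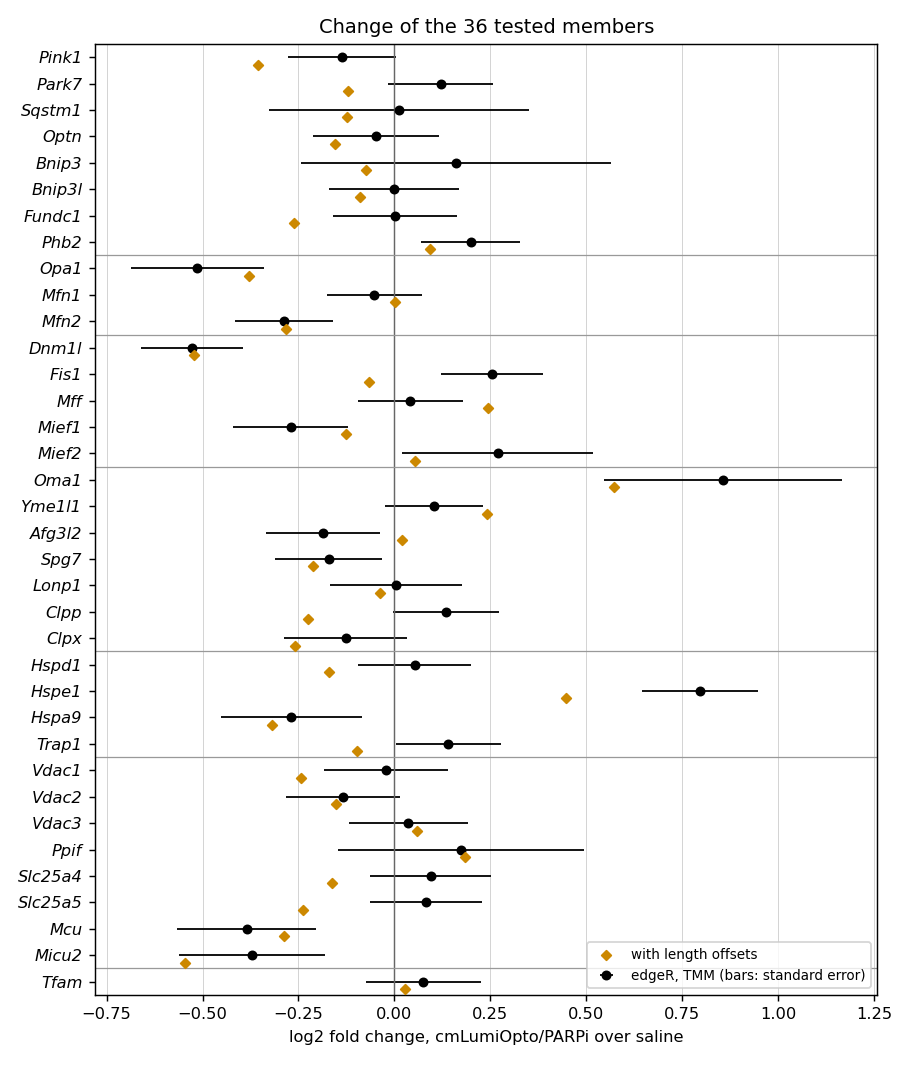
The x axis gives the log2 fold change of cmLumiOpto/PARPi over saline for the 36 tested members, listed by role on the y axis. Black points are edgeR estimates with bars of 1 standard error, and orange diamonds the estimates with length offsets. Hspe1 (0.80) and Oma1 (0.86) lie farthest to the right, Opa1 (-0.51) and Dnm1l (-0.53) farthest to the left, and most other bars reach or pass 0.

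Log2 fold changes were lower in longer genes, over all genes and over the members alike. The median over all genes was 0.31 in the shortest of 5 groups of equal size and -0.27 in the longest. The 4 members of the shortest group, Fis1, Clpp, Hspe1 and Slc25a5, had a median of 0.19, and the 5 of the longest, Opa1, Mff, Mief1, Yme1l1 and Afg3l2, one of -0.19. Between them the medians of 12, 9 and 6 members were 0.07, -0.05 and -0.17. Oma1, of 2144 bases, and Hspe1 stood above the median of their length groups (0.15 and 0.31) and Opa1, of 7875 bases, and Dnm1l, of 5203 bases, below theirs (-0.27 and -0.09). With per-library length offsets in the fit, Hspe1 and Dnm1l were the 2 members with an unadjusted p under 0.05. The part of this slope in the members' values was not tested.

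**Figure D5:**
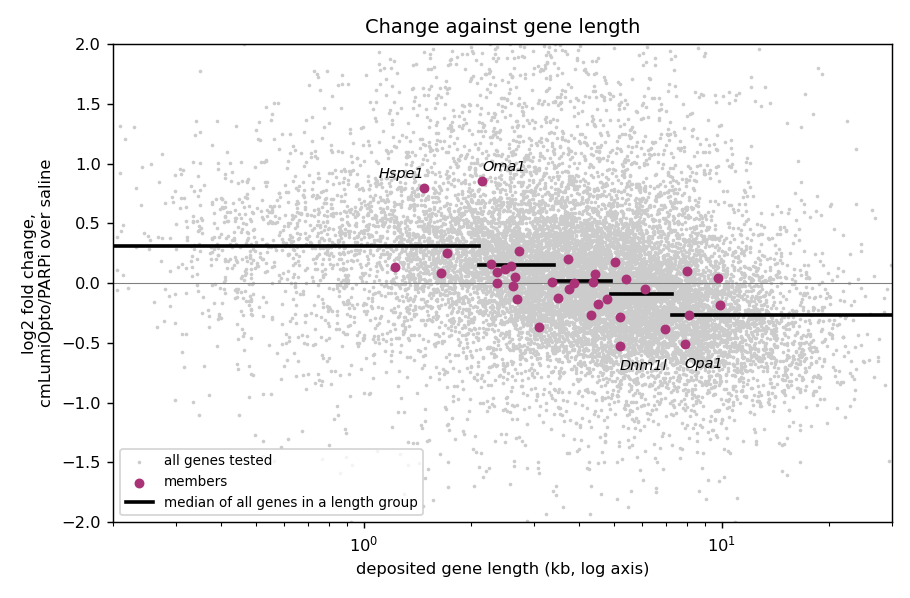
The x axis gives the deposited gene length in kb on a log scale and the y axis the log2 fold change of cmLumiOpto/PARPi over saline. Grey dots are all genes tested (those within -2 and 2 are drawn), purple dots the 36 members, and black lines the median of all genes in each of 5 length groups, from 0.31 to -0.27. Hspe1 and Oma1 lie above the line of their group, and Dnm1l and Opa1 below.

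A wider list of 104 further genes of these processes, of which 100 were tested, had more values away from 0 than the members, with a median size of 0.27 for the log2 fold change. None passed an adjusted p of 0.05 in edgeR's test, and DESeq2 called 4, of which 2 were higher. At an unadjusted p under 0.05, 18 were higher and 9 lower, 18% and 9% against the 9.21% and 12% of all genes. With length offsets the counts were 2 and 4, where 6.05% of all genes were higher and 8.37% lower. With upper-quartile scaling they were 28 and 5, where 13.8% and 7.82% of all genes were. Both counts were smaller in every fit without 1 library, and the number of all genes at such a p varied between these fits. The counts of those fits are not read as a result about the list. By role, 3 of 28 mitophagy genes were higher and 2 lower, 4 of 9 fusion and cristae genes were higher, and 1 of 6 fission genes was lower. Of 12 protease genes 1 was higher and 2 were lower, 3 of 7 chaperone genes were higher, 3 of 18 channel genes were higher and 3 lower, and of 20 biogenesis genes 4 were higher and 1 was lower.

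The 5 higher genes with the smallest p among those whose groups did not overlap were Smdt1, Atf5, Hscb, Micos10 and Immp1l. Smdt1, the uniporter subunit EMRE that couples the pore to its gatekeepers, had 59.3 and 67.4 CPM against 104 and 94.4 CPM (log2 fold change 0.64, standard error 0.14, adjusted p = 0.138), on the opposite side of the saline level from Mcu and Micu2. Atf5, a transcription factor of the mitochondrial unfolded protein response, had 45.8 and 45.1 CPM against 66.2 and 81.8 CPM (0.70, standard error 0.16, adjusted p = 0.138). Hscb, a co-chaperone of iron-sulfur cluster assembly, had a log2 fold change of 0.83, Micos10, a cristae junction subunit, 0.56, and Immp1l, an inner membrane peptidase subunit, 0.83. With length offsets these 5 ran from 0.30 to 0.46, and 0 of 5 had p under 0.05.

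The 5 lower genes were Hk1, Hk2, Pitrm1, Inf2 and Vcp. The hexokinases encoded by Hk1 and Hk2 dock on VDAC. Hk2 had 281 and 152 CPM with saline and 93.0 and 119 CPM after treatment (log2 fold change -1.03, standard error 0.31, adjusted p = 0.168), and its saline libraries were themselves far apart. Without saline library 1 the log2 fold change of Hk2 was -0.52 (adjusted p = 0.271 by edgeR's test). Hk1 had 262 and 238 CPM against 145 and 186 CPM (-0.59, standard error 0.17). Inf2, an actin-nucleating formin that primes DRP1-driven division, had 209 and 287 CPM against 139 and 174 CPM (-0.66, standard error 0.21, adjusted p = 0.177), on the same side as Dnm1l. Pitrm1, a matrix peptidase that clears presequences, had a log2 fold change of -0.53, and Vcp, the ATPase that extracts ubiquitin-marked proteins from the outer membrane, -0.57. With length offsets 4 of these 5, all but Hk1, had p under 0.05.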

How the data were processed

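Bulk RNA-seq of lungs with 4T1 metastasis was read from 2 saline and 2 cmLumiOpto/PARPi libraries. Reads had been mapped with HISAT2, and the authors deposited raw read counts per gene with each gene's position and length. The counter, its strand setting and its annotation are not given in the sources used here. The study's methods name GRCm38, while the submitters' processing notes name mm39. Of 52073 genes found in the GRCm38 annotation, 2.83% had the position given in the table, so table positions are printed as mm39 and promoter sequences, from RefSeq, as GRCm38.p6.

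Differential expression was tested from the counts with edgeR 4.0.16 (R 4.3.3): genes were filtered by filterByExpr (minimum count 10), libraries scaled by TMM, and glmQLFit and glmQLFTest run at their defaults, with Benjamini-Hochberg adjustment over 15167 genes at a threshold of 0.05. The standard error is the size of the log2 fold change over the square root of F. Where values of p are given without the word adjusted, they are unadjusted. Alternatives were DESeq2 1.42.0, the fit without the legacy option of glmQLFit, RLE and upper-quartile size factors, no filter and a minimum count of 30, per-library offsets from a loess trend on gene length (span 0.5), the replicate number as a block, and leaving out each library. Where 1 library of a group was left, it was taken to vary like the other group. The fit was also run on simulated counts, which held no effect shared by same-numbered libraries, and its outcome is not used here. The labels do not say whether the replicates of a group came from separate mice, and p-values measure the spread between these libraries, which may be technical.

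The members and gene lists were chosen with earlier results of these data known. Every member could be named, ordered by role, with values in all libraries for those whose groups did not overlap at p under 0.05, for the highest per kilobase of each role and for the PINK1-pathway, VDAC and adenine nucleotide carrier genes. Most others are given too. Named from the wider list were up to 5 genes in each direction with the smallest p among those whose groups did not overlap. The exact permutation test was used for ratios. Some related genes are not reported here.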

Additional observations from a re-analysis of the deposited data

How the results depend on the processing

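Depth left Ppargc1a, at 3 to 11 counts, untested. Members past an adjusted p of 0.05 numbered 0 in edgeR's test and 1 in DESeq2 (Hspe1) and 2 without the filter on low counts (Dnm1l and Hspe1), while all genes past it numbered 0, 981 and 2000. They were 0 for members and for all genes without the legacy option, with RLE or upper-quartile factors, with a minimum count of 30 and with length offsets. Leaving out 1 library gave 0 members and 0 to 2 genes.

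Same-numbered libraries come from different mice, so no pairing was assumed in the main fit. Their deviations from the group means nevertheless went together in part, with a Spearman's rho of 0.298 over genes. What they shared was not tested. The replicate block called 2 members (Dnm1l and Hspe1) and 1822 genes, and together with length offsets 2 members (Dnm1l and Micu2) and 1234 genes. With the block and length offsets, 5 members were lower, 1 was higher and 11 genes of the wider list were higher at an unadjusted p under 0.05. In that fit 4018 of the 15167 genes tested had such a p in either direction, so these counts do not set the members apart.

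At an unadjusted p under 0.05, members higher and lower numbered 3 and 1 with upper-quartile factors, where 13.8% and 7.82% of all genes were. With length offsets members numbered 1 and 1, where 6.05% and 8.37% of all genes were higher and lower. Which members passed also changed on leaving out 1 library. The wider list gave 28 higher and 5 lower with upper-quartile factors, 2 and 4 with length offsets, and 6 to 12 and 3 to 7 without 1 library. Members whose groups did not overlap went from 7 higher and 12 lower to 15 and 5 with upper-quartile factors (35.1% and 20.9% of all genes). The cause was not tested.

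Hspe1, Oma1, Opa1 and Dnm1l kept their direction in all 13 alternatives, over 0.45 to 0.92, 0.44 to 1.17, -0.69 to -0.31 and -0.60 to -0.42 on the log2 scale, with adjusted p-values of 0.00109 to 0.440, 0.0634 to 0.621, 0.0559 to 0.591 and 0.0356 to 0.459. The 10 named genes of the wider list kept theirs too, though Hk2 went to -0.52 without saline library 1, Inf2 to -0.42 without saline library 2 and Vcp to -0.37 without treated library 1. All of these genes have groups that do not overlap, so leaving out 1 library could hardly turn their direction. The other alternatives used the same 4 libraries. The kept direction is therefore not separate support.

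The members that changed sign in some alternative ran from -0.19 (Afg3l2) to 0.25 (Fis1) in the main fit, so not all of them were near 0. With length offsets the log2 fold change was -0.12 for Park7, -0.12 for Sqstm1, -0.075 for Bnip3, -0.089 for Bnip3l, -0.26 for Fundc1, 0.0019 for Mfn1, -0.067 for Fis1, 0.019 for Afg3l2, -0.039 for Lonp1, -0.22 for Clpp, -0.17 for Hspd1, -0.10 for Trap1, -0.16 for Slc25a4 and -0.24 for Slc25a5. With the replicate block and length offsets it was -0.12 for Park7, -0.21 for Sqstm1, -0.22 for Bnip3, -0.11 for Bnip3l, -0.24 for Fundc1, 0.00093 for Mfn1, -0.063 for Fis1, 0.0091 for Afg3l2, -0.058 for Lonp1, -0.22 for Clpp, -0.17 for Hspd1, -0.090 for Trap1, -0.16 for Slc25a4 and -0.24 for Slc25a5. With the replicate block alone it was -0.062 for Sqstm1, -0.012 for Bnip3l and -0.0064 for Lonp1. Upper-quartile factors gave 0.058 for Optn, 0.052 for Mfn1 and 0.083 for Vdac1, and no filter -0.0091 for Bnip3l, -0.010 for Fundc1 and -0.0039 for Lonp1. Leaving out 1 library gave -0.58 to 0.43 for Sqstm1, -0.61 to 0.66 for Bnip3, -0.21 to 0.18 for Bnip3l, -0.16 to 0.18 for Fundc1, -0.047 to 0.12 for Mff, -0.21 to 0.19 for Lonp1, -0.015 to 0.12 for Hspd1, -0.18 to 0.12 for Vdac1, -0.13 to 0.18 for Vdac3, -0.19 to 0.66 for Ppif, -0.0051 to 0.20 for Slc25a4, -0.0031 to 0.16 for Slc25a5 and -0.013 to 0.17 for Tfam.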
